A study of Mus musculus with 26 samples.

Results

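Translation factors and aminoacyl-tRNA synthetases were followed across 5 exocrine glands of male and female mice. They were chosen by gene symbol alone: every probe whose symbol begins with Eif, Eef, Gspt or Etf1, or has the form of a tRNA synthetase symbol such as Cars or Hars2, without the sex-chromosome pair Eif2s3x and Eif2s3y. This rule took 57 of the 10500 probes on the array, for 56 of 8841 named genes. After a filter on dim signal, 54 probes for 53 genes were tested. The filter kept probes that reached the 30th percentile of their array on every array of at least 1 group. Gspt2 (0.0529 to 0.698), Eefsec (0.179 to 0.738) and Sars2 (0.0972 to 0.625) did not pass it, and their ranges of scaled intensity over the 26 arrays are all that is reported for them. Eif4e2 had 2 probes, and the other genes had 1.

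The groups were male and female BALB/c mice, each with submandibular, sublingual, parotid, lacrimal and meibomian glands, and no treatment was applied. Every array carried RNA pooled from the glands of 5 animals. Each sex had 3 pools of submandibular, lacrimal and meibomian gland and 2 pools of sublingual and parotid gland, named by letters. The labels do not name the age of the animals. Because the samples are pools of whole glands, a lower value can mean fewer cells of a type or less RNA per cell, and these cannot be told apart. Values are scaled fluorescence intensities, with array medians over all probes between 0.928 and 0.955, and differences are on the log2 scale with the standard error of the fit.

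Protein synthesis starts when a small ribosomal subunit, held by the eIF3 complex and carrying the initiator tRNA brought by eIF2, is recruited to the mRNA cap by eIF4F. Elongation factors then deliver aminoacyl-tRNAs made by the synthetases and move the ribosome along, and release factors end the chain. Kinases that phosphorylate the alpha subunit of eIF2 lower overall initiation and raise translation of the transcription factor ATF4, whose known targets include several tRNA synthetase genes. Salivary and lacrimal acinar cells export large amounts of protein, whereas meibomian cells make lipid and disintegrate to release it.

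Upstream sequences were matched in RefSeq (build GRCm38.p6) for 37 of the 56 genes. Below, 4 cytosolic synthetases among them, together with Eif3f, the member with the largest spread between glands, are shown as the 120 bases before the transcription start, because the synthetases moved together in the lacrimal gland. Capitals mark TTGCATCA (reverse complement TGATGCAA), a core of the sites that ATF4 binds, and CACGTG, the E box, which is its own reverse complement.
Kars (chr8:112011355-112011474, minus strand): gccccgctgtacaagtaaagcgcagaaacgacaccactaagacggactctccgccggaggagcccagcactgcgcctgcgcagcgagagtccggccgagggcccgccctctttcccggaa
Qars (chr9:108507885-108508004, plus strand): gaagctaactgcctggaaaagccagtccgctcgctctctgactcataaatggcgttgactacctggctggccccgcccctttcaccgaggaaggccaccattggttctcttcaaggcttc
Sars (chr3:108445260-108445379, minus strand): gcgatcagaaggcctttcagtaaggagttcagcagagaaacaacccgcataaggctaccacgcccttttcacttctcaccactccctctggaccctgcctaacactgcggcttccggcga
Tars (chr15:11399659-11399778, minus strand): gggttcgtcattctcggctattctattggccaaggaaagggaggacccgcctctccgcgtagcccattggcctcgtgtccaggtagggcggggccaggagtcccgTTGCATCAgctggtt
Eif3f (chr7:108934295-108934414, plus strand): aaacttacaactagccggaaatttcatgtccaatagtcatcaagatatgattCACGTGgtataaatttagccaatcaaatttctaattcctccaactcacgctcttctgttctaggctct
In the windows of 250 bases before to 50 after each start, TTGCATCA on either strand occurred in 1 of the 37 genes, Tars, where it began 15 bases before the start. It occurred in 0.823% of the 7051 genes with a probe on the array. CACGTG occurred in 12 of the 51 windows of these 37 genes (23.5%), against 9.57% of the 9018 windows of genes on the array and 7.15% of all 32851 windows. The 10 genes were Eef2, Eef2k, Eif3a, Eif3f, Eif3k, Eif4a1, Eif4e, Eif4h, Eif5a and Tars. TGACGTCA, the cyclic AMP response element, occurred in Eef2 alone (1.96% of the windows, against 2.54% on the array). None of these matches overlapped another motif. A match describes the letters, not a bound site.

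The arrays fell into sets whose cause no label names. The first principal component of the deviations from the 10 group means, which held 38.1% of their variance, set 10 arrays (1 per group) apart from the other 16. Both sets hold every group, so gland and sex can be compared within each, and set values are given for some results only. Gland differences of Eif4e3, Eif4a2 and Eif2s2, which differed between sets, are among those given without them. The main fit has no term for the set. Pools with the same letter in the male and female groups of a gland deviated together, so results were also fitted with the pool letter as a replicate block.

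The marker genes of the glands were mostly in place. The summed intensity of 3 lacrimal acinar markers was 540 to 898 on lacrimal arrays, against 1.35 to 10.8 on all others, and that of 9 sebaceous markers was 514 to 722 on meibomian arrays, against 17.4 to 115 on all others. The 4 submandibular markers summed to 369 to 864 in submandibular glands, against 201 to 351 in sublingual and 163 to 368 in parotid glands. The 3 serous markers listed for parotid gland did not set it apart (434 to 1372 in parotid, 550 to 918 in submandibular and 713 to 1278 in lacrimal glands). Nor did the summed mucous markers set the sublingual gland apart (35.2 to 57.7, against 282 to 464 in lacrimal glands). Agr2 (356) held most of that lacrimal sum, whereas Spdef was highest in sublingual glands (17.8, against 2.43 in lacrimal glands). Markers of other tissues differed as well. The 22 skeletal muscle markers summed to 289 to 523 in meibomian and 85.9 to 374 in parotid glands, against 7.29 to 35.3 in the other 3, and 2 of the 22 were dim in meibomian and in parotid glands. The 7 B and plasma cell markers summed to 101 to 147 in lacrimal glands, against 19.4 to 107 in the other 4, with 2 dim in meibomian glands. Xbp1 (72.6) and Cd79a (21.4) held most of the lacrimal sum, and Pou2af1 (0.88) was also highest there. Ighm, Ms4a1, Cd79b and Jchain were instead highest in sublingual glands. They stood at 12.7, 5.36, 3.94 and 10.7 there, against 0.59, 0.22, 0.56 and 7.59 in lacrimal glands. The 5 adipocyte markers summed to 157 to 472 in parotid glands, against 10.5 to 45.6 in lacrimal glands. The 6 epidermis markers summed to 130 to 188 in meibomian and 67.3 to 74.8 in parotid glands, against 6.80 to 25.2 in the other 3. Pkp1 (61.5) held most of the parotid sum, where Krt1, Trp63, Sfn and Krt10 stood at 2.21, 0.58, 3.92 and 0.83. These same genes except Pkp1 were highest in meibomian glands, whereas Lor was lowest there (0.95). Their part in the results below was not tested.

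Translation factors differed among the 5 glands about as often as other genes. In limma's moderated F test over the 5 glands, with p-values adjusted by the Benjamini-Hochberg method over all probes, 45 of the 54 members passed at 0.05 (83.3%), against 80.6% of all probes tested. The lacrimal gland held the highest mean for 34 of the 54 (63%), against 29.1% of all probes. Parotid (18, against 24.4% of all probes), meibomian (17, against 35.9%) and sublingual (11, against 13.5%) glands held most of the lowest means.

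**Figure D1:**
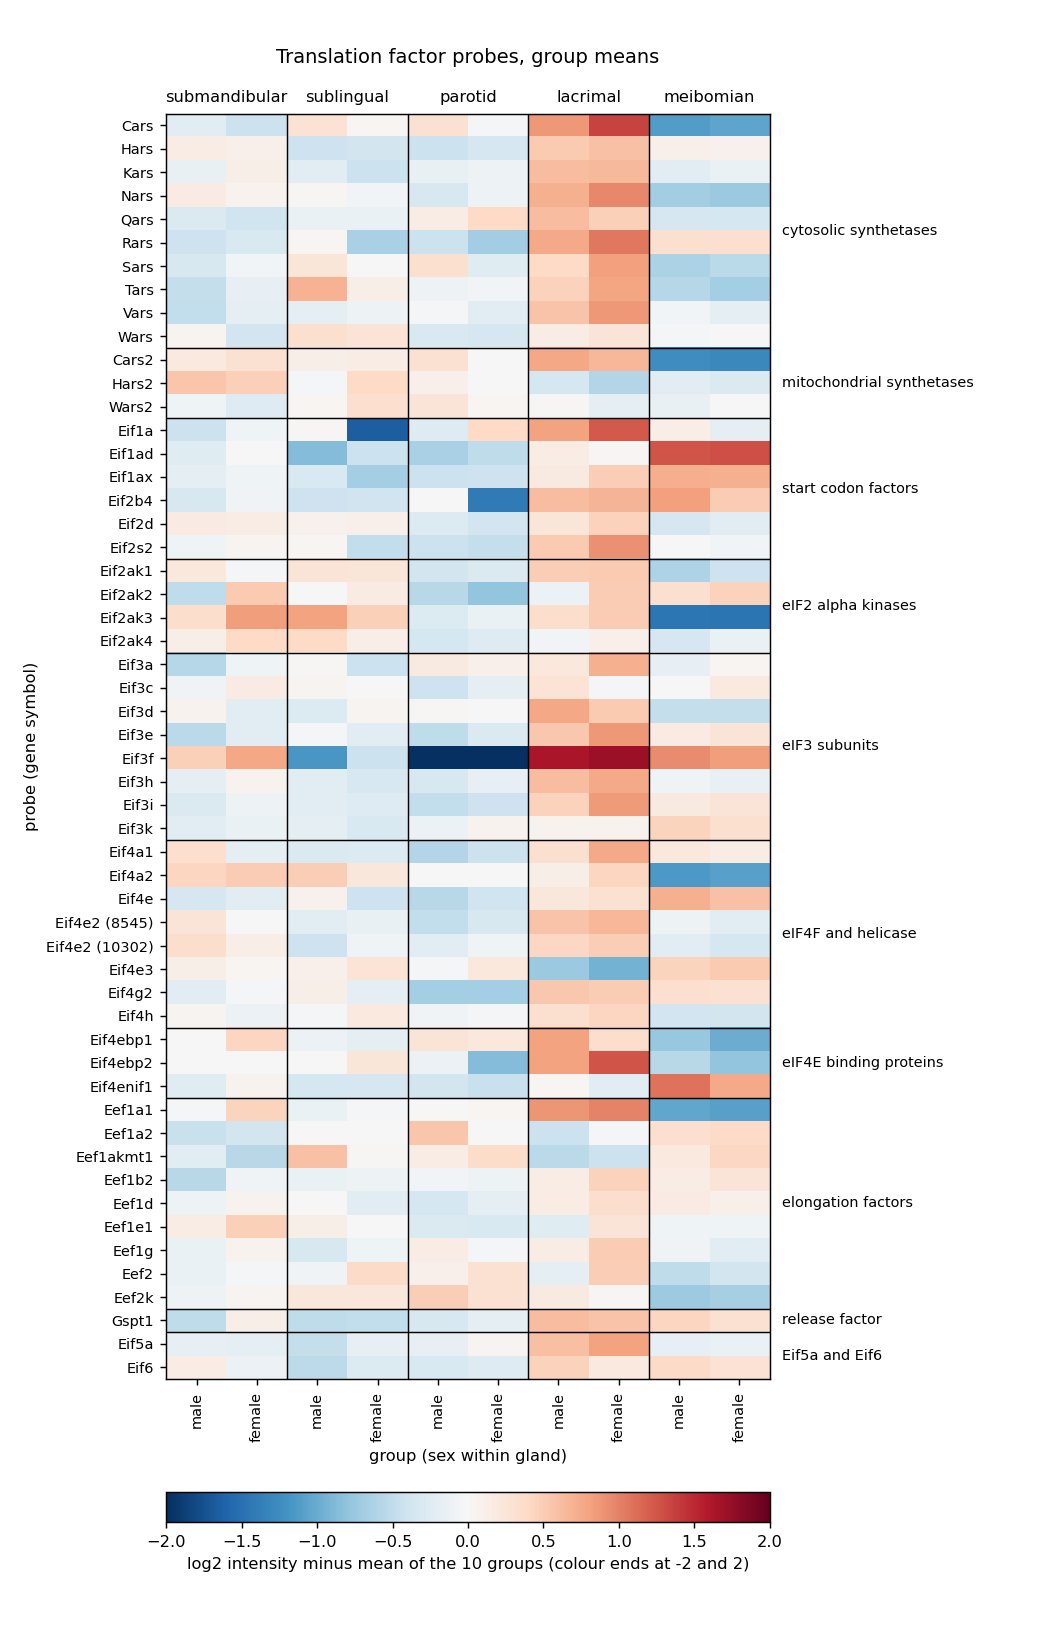
Group means of the 54 tested probes (rows, by role) in the 10 groups (columns, male left of female within each gland), coloured by log2 intensity minus the mean of the 10 groups. The lacrimal columns are red for most rows, Eif3f is darkest blue in the parotid columns, and Eif2ak3, Cars2, Cars and Eif4a2 are blue in the meibomian columns.

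In the lacrimal gland, 32 of 54 members were higher than the mean of the other 4 glands and 3 were lower. Over all probes 28.9% were higher and 19.5% lower in this comparison. The 32 differences ran from 0.38 to 2.09, and the median of all 54 was 0.61, against 0.12 for all probes. Under quantile normalization, which forces all arrays onto 1 distribution, the split was 26 higher and 4 lower, the members' median 0.38, and all probes had 22.9% higher and 27.4% lower with a median of -0.06. Relative to that shift the members' median stayed above that of all probes under both scalings. Within array set 2 the counts were 30 higher and 1 lower, and within set 1, which has 1 array per group, 21 higher and 2 lower. With the replicate block 27 were higher and 3 lower. Where counts from an alternative fit are given here or below without the share of all probes, they describe the members only. At a difference of at least 1 on the log2 scale, 6 were higher (11.1%, against 11.6% of all probes).

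**Figure D2:**
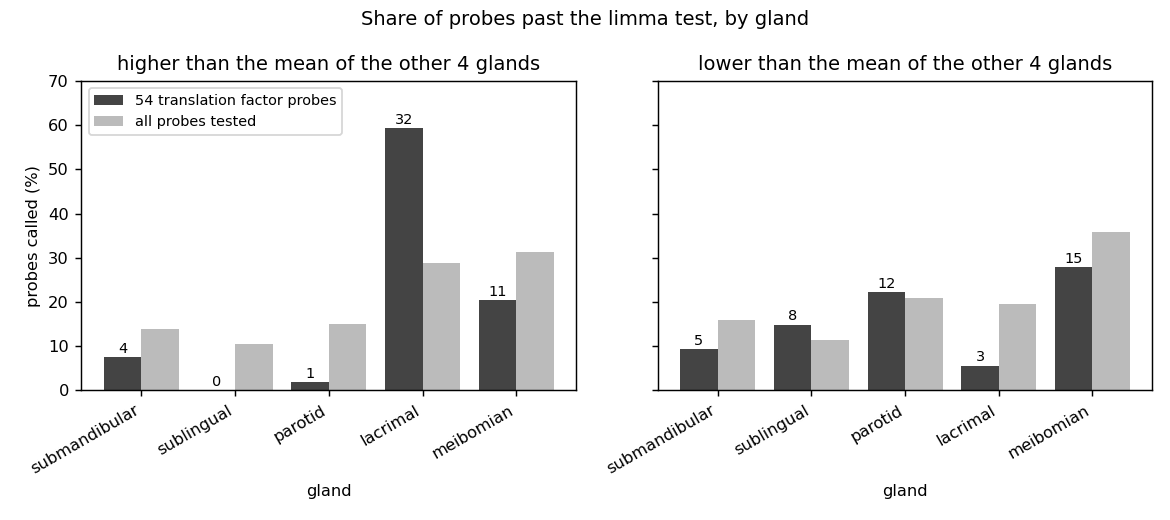
Share of probes called higher (left) or lower (right) in each gland than the mean of the other 4 glands, in percent, for the 54 translation factor probes (dark bars, with their number) and for all probes tested (light bars). The dark bar exceeds the light one most for higher calls in the lacrimal gland, 59.3% against 28.9%.

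Cytosolic tRNA synthetases, which charge tRNAs with their amino acids, were higher in the lacrimal gland for 9 of 10, against 28.9% of all probes. The median difference of the 10 was 0.79 (0.65 under quantile normalization). The remaining one, Wars, had 0.26 ± 0.19. Cars, the cysteinyl-tRNA synthetase, had its lowest, median and highest lacrimal array at 4.51, 6.33 and 8.99, whereas all other arrays lay between 1.17 and 3.89. No lacrimal array overlapped any other gland. The difference was 1.39 ± 0.15, a 2.62-fold higher level (adjusted p = 3.02e-07), with 1.06 in array set 1 and 1.61 in array set 2. Kars, for lysine, ranged from 16.1 to 21.3 with a median of 17.2 in lacrimal glands, and all other arrays lay between 8.06 and 13.6. Its difference was 0.79 ± 0.10 (adjusted p = 1.89e-06), and below the lacrimal gland no neighbouring pair of glands in the order submandibular, parotid, meibomian, sublingual differed past the threshold. Rars (1.13 ± 0.22), Nars (1.04 ± 0.14), Vars (0.90 ± 0.23), Tars (0.79 ± 0.16), Sars (0.77 ± 0.13), Hars (0.69 ± 0.14) and Qars (0.69 ± 0.10) were higher with some overlap of arrays. They charge the tRNAs for arginine, asparagine, valine, threonine, serine, histidine and glutamine.

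Mitochondrial synthetases did not move as a group. Cars2 was higher in the lacrimal gland by 0.90 ± 0.16, Hars2 was lower by 0.59 (-0.59 ± 0.15, adjusted p = 0.00261), and Wars2 had -0.11 ± 0.13. Hars2 measured 1.04, 0.99, 1.33, 1.38, 0.64 and 0.98 on the lacrimal arrays, against 1.56 to 2.52 on the submandibular ones, its highest gland. The meibomian arrays, given with the submandibular gland below, overlapped the lacrimal ones, so a low Hars2 level was not particular to the lacrimal gland. The cytosolic enzyme Hars and the mitochondrial enzyme Hars2 therefore differed in opposite directions in the same gland. Over the 10 group means Hars and Hars2 had r = -0.48, and Cars and Cars2 had r = 0.87. These are descriptions over groups that share arrays.

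eIF3 is the largest initiation factor and bridges the small subunit to eIF4F. Of its 8 subunits tested, 6 were higher in the lacrimal gland, against 28.9% of all probes. The median difference of the 8 was 0.82 (0.50 under quantile normalization). Eif3h had 58.4, 72.3 and 115 as lowest, median and highest lacrimal values, above the 31.2 to 54.3 of all other arrays (0.86 ± 0.15, adjusted p = 7.38e-05). Eif3d, a subunit that binds the cap of some mRNAs, had 6.49, 7.69 and 9.88, above 3.15 to 5.88 on all other arrays (0.81 ± 0.12, adjusted p = 7.91e-06). In both genes the lacrimal arrays did not overlap those of any other gland. Eif3e (0.88 ± 0.17), Eif3i (0.82 ± 0.15) and Eif3a (0.57 ± 0.17) passed with overlap, while Eif3c (0.16 ± 0.18) and Eif3k (0.09 ± 0.15) did not pass. Cars, Eif5a, Eif3h, Eif3d and Kars were the 5 members whose lacrimal arrays all lay above the rest (9.26% of 54), and 3.13% of all probes did so.

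Eif3f had the widest gland range of all members. Its lowest, median and highest arrays were 33.9, 51.8 and 91.2 in lacrimal, 24.1, 30.04 and 38.7 in meibomian and 19.6, 25.2 and 36.0 in submandibular glands. The 4 sublingual arrays read 8.20, 6.75, 15.2 and 10.1, and the 4 parotid arrays 2.73, 3.85, 2.94 and 3.34. All parotid values lay below every other array. Lacrimal glands were above the other 4 by 2.09 ± 0.18 (4.25-fold, adjusted p = 7.07e-09) and parotid glands were below them by 2.98 on the log2 scale (-2.98 ± 0.21, 7.90-fold lower, adjusted p = 4.88e-10). Between neighbours in the order, lacrimal exceeded meibomian by 0.78 (adjusted p = 0.0044), submandibular exceeded sublingual by 1.42 (adjusted p = 0.000332) and sublingual exceeded parotid by 1.59 (adjusted p = 0.000184), while meibomian and submandibular glands did not differ past the threshold (adjusted p = 0.298). Within array sets 1 and 2 the parotid difference was -3.26 and -2.73. The other 7 eIF3 subunits had parotid differences between -0.56 and 0.17. Eif3f is an eIF3 subunit with an MPN domain, a fold shared with subunits of the proteasome lid.

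**Figure D3:**
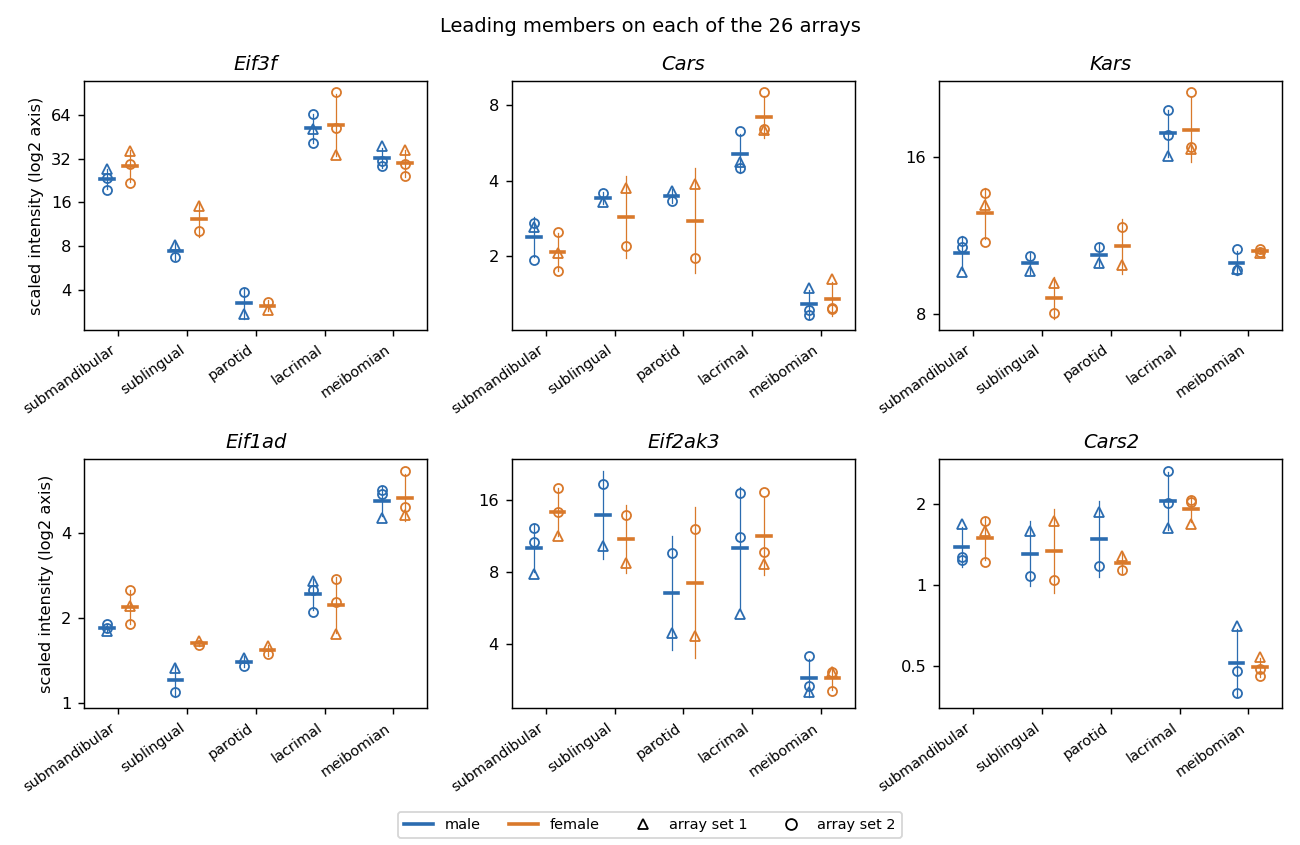
Scaled intensity (log2 axis) of 6 members on each array, by gland, male left of female; bars are geometric means, thin lines 1 SD on the log2 scale, triangles array set 1 and circles array set 2. Lacrimal arrays lie above all others for Cars and Kars, parotid arrays below all others for Eif3f, and meibomian arrays above for Eif1ad and below for Eif2ak3, Cars2 and Cars.

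Among factors of start codon selection and the eIF2 cycle, 4 of 6 were higher in the lacrimal gland (against 28.9% of all probes). They were Eif1a, Eif2s2, the beta subunit of eIF2 (0.90 ± 0.25), Eif2b4, a subunit of its exchange factor (0.81 ± 0.27), and Eif2d (0.44 ± 0.12). Eif1a was dim in 5 groups, so its lacrimal level is given as at least 1.49-fold higher (adjusted p = 0.00141), and under quantile normalization it no longer passed (adjusted p = 0.06). The X-linked form Eif1ax had 0.43 ± 0.18 and did not pass. The release factor Gspt1 was higher by 0.74 ± 0.15.

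The cap-binding group had 5 probes higher and 1 lower in the lacrimal gland among 8, against 28.9% and 19.5% of all probes. The higher ones were Eif4a1, the main RNA helicase of eIF4F (0.68 ± 0.21), Eif4g2 (0.65 ± 0.15), Eif4h (0.48 ± 0.14) and both Eif4e2 probes (0.77 ± 0.16 and 0.56 ± 0.17), whose 10 group means correlated at 0.88. Eif4e3, a cap-binding relative of eIF4E, was lower (-1.05 ± 0.30, adjusted p = 0.00722). Its lacrimal arrays read 0.24, 0.62, 0.61, 0.29, 0.44 and 0.47, and those of all other glands 0.47 to 2.13. Eif4ebp1, which binds eIF4E and blocks eIF4F assembly, was higher by 0.72 ± 0.22.

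Eif5a, the hypusine-bearing factor that relieves ribosome stalls, read 79.8 to 110 with a median of 92.99 in lacrimal glands, above 36.3 to 63.9 on all other arrays. The difference was 0.88 ± 0.11 (adjusted p = 2.64e-06), but it fell to 0.35 under quantile normalization (adjusted p = 0.109). The elongation factor list takes every Eef symbol, so it also holds modifying enzymes such as Eef1akmt1 and Eef2k. Of its 9 tested probes, only Eef1a1 (1.16 ± 0.24) and Eef1b2 (0.38 ± 0.13) were called higher in the lacrimal gland. Eef1akmt1, a lysine methyltransferase of eEF1A, was called lower (-0.60 ± 0.15). The Eef1akmt1 probe was missing on 4 of the 6 meibomian arrays, and with missing cells at the floor its lacrimal difference was 0.68. Eef1a1, which delivers aminoacyl-tRNA to the ribosome, was among the brightest probes. It stood at 62.2% to 100% of the array maximum on all arrays and at 96.6% to 100% in meibomian glands. Its lacrimal (1.16) and meibomian (-1.33) differences became -0.02 and 0.03 under quantile normalization, so no direction is drawn for it. The tissue-restricted paralogue Eef1a2 had lacrimal and meibomian differences of -0.29 ± 0.20 and 0.46 ± 0.20, and neither passed.

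In the meibomian gland, 11 members were higher and 15 lower than the mean of the other 4 glands. Of all probes 31.4% were higher and 35.9% lower, beside 20.4% and 27.8% of the members. With array weights 16 members were higher and 23 lower, and 37.1% and 42.3% of all probes. With the replicate block the counts were 6 higher and 14 lower. Cars2, Cars, Nars, Eif2ak3 and Eif4a2 lay below every array of the other glands (9.26% of 54, against 9.86% of all probes) and Eif1ad lay above (1.85%, against 9.91%).

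Of the 10 cytosolic synthetases, 5 were lower and none was called higher in the meibomian gland, where 35.9% of all probes were lower. Cars measured 1.17, 1.24 and 1.62 as lowest, median and highest meibomian values, against a lowest value of 1.75 elsewhere (-1.36 ± 0.15, 2.56-fold lower, adjusted p = 1.66e-07). Nars measured 8.05, 8.84 and 10.2, against 10.9 or more elsewhere (-0.89 ± 0.14, adjusted p = 1.1e-05). Tars (-0.78 ± 0.16), Sars (-0.73 ± 0.13) and Qars (-0.43 ± 0.10) were the other three. Rars (0.40 ± 0.22), Hars (0.12 ± 0.14) and Kars (-0.21 ± 0.10) did not pass. Cars2, the mitochondrial cysteinyl enzyme, read 0.40, 0.49 and 0.71 in meibomian glands, against 1.04 to 2.67 elsewhere (-1.57 ± 0.16, 2.98-fold lower, adjusted p = 2.52e-08).

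The eIF2 alpha kinases each sense a different stress. Eif2ak3, the kinase PERK of the endoplasmic reticulum, read 2.53, 2.87 and 3.56 in meibomian glands, and no array of another gland lay below 4.32. The difference was -1.82 ± 0.25, 3.53-fold lower (adjusted p = 1.86e-06), with -1.36 in array set 1 and -2.18 in array set 2. The order of the other glands was sublingual, submandibular, lacrimal and parotid, with no neighbouring pair apart past the threshold. Eif2ak1, the haem-regulated kinase, was lower in meibomian (-0.65 ± 0.22) and higher in lacrimal glands (0.64 ± 0.22). Eif2ak2, the double-stranded RNA kinase PKR, was called higher in meibomian glands (0.48 ± 0.15), and is given as at least 1.35-fold higher because parotid values were dim, but not with the replicate block (adjusted p = 0.059). Eif2ak4, the amino acid sensor GCN2, was called in no gland and ranged from -0.38 to 0.33.

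Eif1ad, a nuclear protein with an eIF1A-like domain, was the member highest in the meibomian gland relative to the others. Its meibomian arrays read 4.54, 5.22 and 6.68 as lowest, median and highest, and all other arrays 1.09 to 2.75. The difference was 1.59 ± 0.12, 3.01-fold higher (adjusted p = 3.09e-10), with 1.38 in array set 1 and 1.71 in array set 2. Eif1ax (0.89 ± 0.18) and Eif2b4 (0.83 ± 0.27) were also higher, the last not with the replicate block (adjusted p = 0.0685). Eif3f (1.11 ± 0.18) and Eif3k (0.47 ± 0.15) were higher, whereas Eif3d was lower (-0.59 ± 0.12).

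Helicases and cap-binding factors moved in both directions in the meibomian gland. Eif4a2, the second eIF4A helicase, read 14.0, 17.3 and 19.8, against 26.9 to 72.4 elsewhere (-1.40 ± 0.21, 2.63-fold lower, adjusted p = 6.64e-06). Its paralogue Eif4a1 had 0.22 ± 0.21 and was not called, and over the 10 group means the 2 paralogues had r = -0.09. Eif4e itself was higher (0.81 ± 0.17, adjusted p = 0.000288). Eif4enif1, which carries eIF4E into the nucleus, was higher (1.15 ± 0.32). It read 5.43 and 3.68 on the meibomian arrays of set 1, against 1.79 to 2.15 on those of set 2. Eif4ebp1 was lower, at 6.94 to 12.51 with a median of 9.69, against 11.3 to 49.3 elsewhere (-1.10 ± 0.20, adjusted p = 7.87e-05). Eef2k, the kinase that inactivates eEF2, was lower too (-0.87 ± 0.20).

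In the parotid gland, 1 member was higher and 12 were lower, against 15.1% and 20.8% of all probes. The mean of the other 4 glands includes the lacrimal gland. In single pairs, 30 members were called lower in parotid than in lacrimal glands, against 25.6% of all probes. The number was 4 against submandibular (13.5% of all probes), 2 against sublingual (8.49%) and 15 against meibomian glands (30.2%). Apart from Eif3f, Eif2ak2 was the other member whose parotid arrays all lay below the rest (3.7% of 54, against 1.66% of all probes), at 0.31 and 0.26 with 2 missing cells. It was dim there and at least 1.54-fold lower (adjusted p = 0.0097), but not called with the replicate block (adjusted p = 0.064). Eif4g2, an eIF4G relative without the eIF4E-binding part, read 13.6, 10.9, 13.04 and 11.4, and the other glands 13.04 to 35.5 (-0.85 ± 0.17, adjusted p = 0.000496). Eif1ad was lower (-0.73 ± 0.14). With the replicate block 0 members were higher and 3 lower, namely Eif3f, Eif4g2 and Eif1ad. Rars (-0.70) lost its call when any 1 of 4 arrays was left out, Eif4a1 (-0.64) with any 1 of 11 and Eif4e (-0.60) with any 1 of 3. The count of lower members was 5 without female pool A, 5 without male pool A and 7 without female pool B. Qars (0.34 ± 0.12) lost it without any 1 of the 4 parotid arrays. Eif2b4 read 5.65 and 5.59 in male parotid glands, against 0.76 and 5.86 in female ones, and its difference of -0.89 was -0.15 without female pool A, the low array (adjusted p = 0.681).

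In the sublingual gland, limma called 0 members higher and 8 lower, against 10.4% and 11.3% of all probes. At an unadjusted p under 0.05, 3 members were higher, against 14.5% of all probes. Eif3f (-0.99 ± 0.21) and Eif1ad (-0.81 ± 0.14) were lower with and without the replicate block. Gspt1 (-0.63), Eif1ax (-0.61), Hars (-0.49), Eif5a (-0.41) and Kars (-0.40) were lower only without it, as was Eif1a, whose 4 arrays read 0.17, 0.27, 0.19 and 0.02. Eif1a was dim in both sublingual groups, so no size is given, and its call was lost without female pool B, whose array lay at the floor. Under quantile normalization the gland had 4 members higher and 6 lower. In single pairs, 28 members were called lower in sublingual than in lacrimal glands, against 22.8% of all probes. The number was 2 against submandibular (7.74% of all probes), 0 against parotid (10.9%) and 10 against meibomian glands (25.9%).

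In the submandibular gland, 4 members were higher and 5 lower, against 13.9% and 16% of all probes. With the replicate block 2 were higher, Eif3f (0.78 ± 0.18) and Hars2 (0.64 ± 0.15), and 1 was lower, Qars (-0.43 ± 0.10). Hars2 read 1.56 to 2.52 with all 6 arrays above the meibomian ones, which read 0.95 to 1.41. Eif2ak3 (0.74), Eif4a2 (0.59), Eef1akmt1 (-0.48, and 0.81 with missing cells at the floor), Eif3e (-0.46), Cars (-0.41) and Eef1b2 (-0.40) were called only without the block. Cars lost its call when any 1 of 19 arrays was left out, Eif3e with any 1 of 16 and Eif4a2 with any 1 of 8. In single pairs, 20 members were called lower in submandibular than in lacrimal glands, against 21.6% of all probes. The number was 2 against sublingual (7.92% of all probes), 2 against parotid (12.4%) and 13 against meibomian glands (27.7%).

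**Figure D4:**
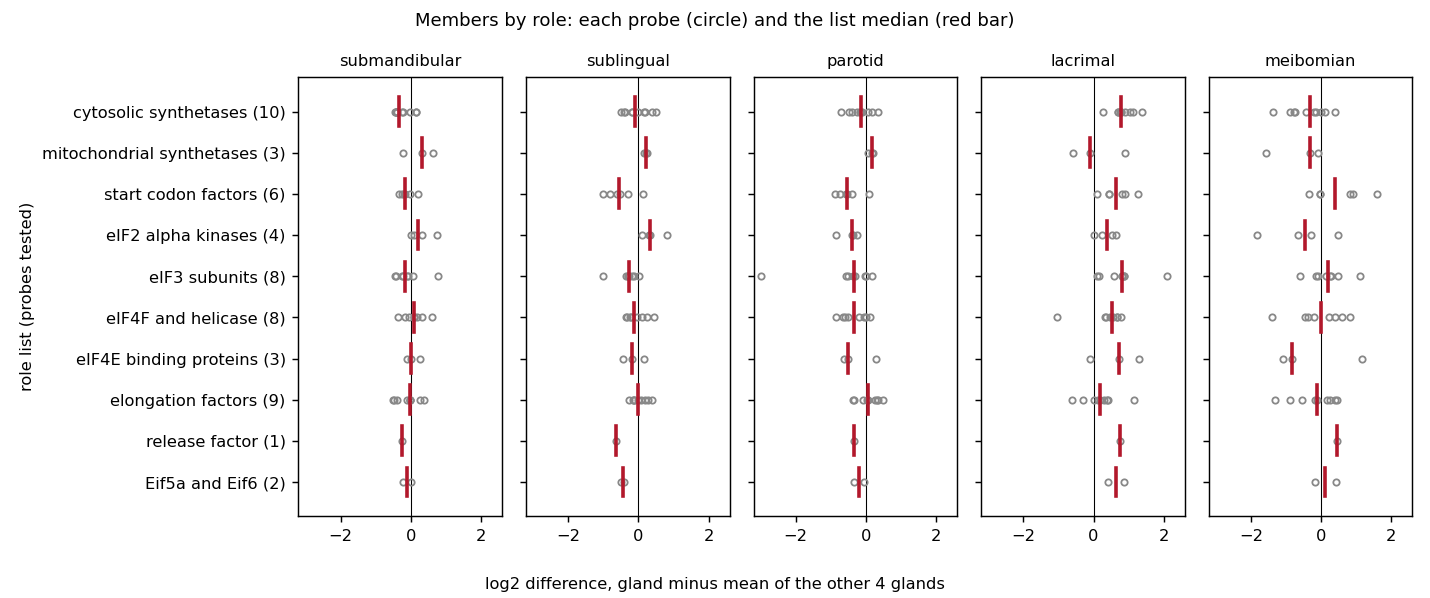
Log2 difference between each gland and the mean of the other 4 glands for every tested probe (circles) by role list, with the list median (red bar). In every panel but the lacrimal one, that mean includes the lacrimal gland. Lacrimal medians lie right of 0 for all lists but the mitochondrial synthetases, and the start codon factors lie left of 0 in sublingual (-0.56) and parotid (-0.54) glands but right of 0 in lacrimal (0.63) and meibomian (0.40) glands.

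By role, the lacrimal medians of the eIF4F group (0.52, or 0.30 under quantile normalization), the eIF4E-binding proteins (0.72 and 0.42) and the eIF2 alpha kinases (0.39 and 0.26) kept their direction under both scalings. That of the elongation factors (0.18 and -0.02) did not. In the sublingual gland the medians of the cytosolic synthetases (-0.09 and 0.07), the eIF4F group (-0.12 and 0.05), the eIF4E-binding proteins (-0.19 and 0.0019) and the elongation factors (-0.0044 and 0.13) all changed sign.

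No translation factor passed the test between male and female glands in the fit that leaves out the pool letter. Members that passed with the letter fitted are given below. In the submandibular, sublingual, parotid, lacrimal and meibomian glands and in their mean, limma called 0 of the 54 members between males and females. Of all probes it called 2.61%, 0.208%, 0.0244%, 5.43%, 0.0366% and 1.28% in these comparisons. The F test of the difference between glands in the sex effect called 0 members (2.66% of all probes), 0 at an unadjusted p under 0.05 (8.91%) and 0 with the replicate block (7.08%). At an unadjusted p under 0.05 the submandibular gland had 3 members lower and 0 higher, against 4.57% and 5.52% of all probes. The sublingual gland had 1 higher (1.39%) and 0 lower (1.53%), and the parotid gland 1 higher (0.879%) and 0 lower (0.745%). The lacrimal gland had 0 higher (6.97%) and 0 lower (7.74%), and the meibomian gland 0 higher (0.122%) and 0 lower (0.11%). The mean of the 5 glands had 0 higher (4.19%) and 1 lower (3.79%). The standard errors, with a median of 0.29 to 0.30 in glands of 3 pools and 0.36 in those of 2, set what could be seen. In each gland 53 or 54 of the 54 differences lay within 1 on the log2 scale.

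**Figure D5:**
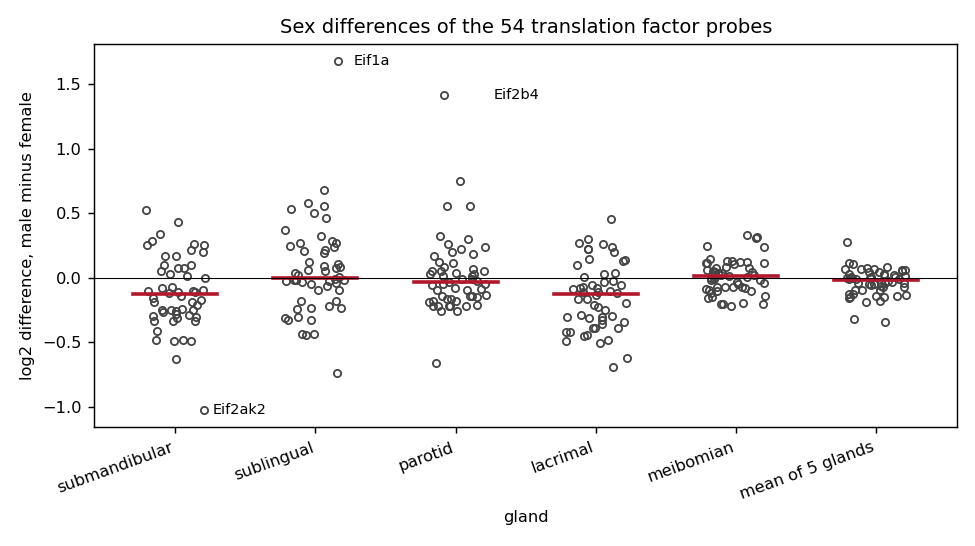
Log2 difference, male minus female, of the 54 probes (circles) in each gland and in the mean of the 5 glands, with the median (red bar). The medians lie between -0.13 and 0.01, and the points beyond 1 in size are Eif2ak2 in submandibular, Eif1a in sublingual (dim in both sexes) and Eif2b4 in parotid glands.

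With the pool letter as a replicate block, 1 member passed in the submandibular gland (3.19% of all probes lower) and 1 in the lacrimal gland (7.31% lower). Eif2ak2 in the submandibular gland read 0.33 and 0.31 in males, against 0.69 and 0.62 in females, with 1 missing array in each sex. The groups did not overlap, as for 10.7% of all probes with males below females, and the difference was -1.02 (adjusted p = 0.0444 with the block and 0.113 without). Eef2, the translocase, read 4.63, 7.68 and 9.50 in male lacrimal glands, against 5.69, 18.0 and 13.8 in female ones. The groups overlapped, but males lay below females in all 3 pool pairs, by 0.69 on the log2 scale (-0.69, adjusted p = 0.0471 with the block). Without female lacrimal pool B, the highest array, the unblocked difference was -0.35.

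The same direction in all pool pairs was seen in other members too. Among the 51 members measured in all 3 lacrimal pairs, males lay below females in every pair for 18 (35.3%, against 23.5% of all probes) and above in every pair for 1, Eif6 (1.96%, against 17.2%). In submandibular glands males lay below in every pair for 20 (39.2%, against 31%) and above for 8 (15.7%, against 18.5%). Of the 54 members, 39 were lower and 15 higher in male lacrimal glands, with a median of -0.12, against -0.03 for all probes. Of the 10 cytosolic synthetases 9 were lower and 1 higher there, with a median of -0.27, and none was called. Cars had the largest of these differences (-0.48), with an adjusted p of 0.45 in limma's fit.

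Markers of other cell types moved with sex in the same glands. The skeletal muscle markers summed to 29.6 to 35.3 in male and 7.60 to 10.99 in female submandibular glands, with 7 of 20 called higher in males, and 4 of 7 smooth muscle and myoepithelial markers were called higher there. In lacrimal glands the 5 adipocyte markers summed to 10.5 to 29.0 in males and 21.2 to 45.6 in females, with 2 called lower and a median of -1.23. The 10 cell cycle markers had a median of 1.20 there, with 9 higher in males and none called. Their part in the members' values was not tested.

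Eif2b4 in the parotid gland, 5.65 and 5.59 in males, against 0.76 and 5.86 in females, differed by 1.41, and the groups overlapped. Eif1a in the sublingual gland read 0.17 and 0.27 in males, against 0.19 and 0.02 in females, which is dim in both, so no difference is given. The X-linked Eif1ax had geometric means of 3.18, 2.94, 2.71, 4.15 and 6.02 in males, against 3.42, 2.28, 2.73, 5.14 and 5.95 in females, in the order of glands given above. Its differences ran from -0.31 in lacrimal to 0.37 in sublingual glands, and none passed.

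Genes of connected pathways were described from lists that the symbol rule does not hold. Of 19 probes of the integrated stress response, 14 were higher and 3 lower in the lacrimal gland, against 28.9% and 19.5% of all probes, and 7 were higher and 5 lower in the meibomian gland, against 31.4% and 35.9%. Mthfd2, a mitochondrial folate enzyme, read 15.4, 34.9 and 50.3 as lowest, median and highest lacrimal values, against 1.24 to 18.1 elsewhere (2.66 ± 0.21, adjusted p = 2.96e-09), and 1.24, 1.42 and 1.55 in meibomian glands (-3.03 ± 0.21). Asns, the asparagine synthetase, read 4.25, 4.70 and 5.50 in meibomian glands, against 30.2 to 79.4 elsewhere (-3.46 ± 0.15, 11-fold lower, adjusted p = 7.62e-14). Its lacrimal mean (45.8) lay below those of submandibular (48.6), sublingual (51.9) and parotid glands (63.0). The lacrimal comparison is made with a mean that includes the low meibomian values. Dnajc3, an inhibitor of the eIF2 alpha kinases, was higher in lacrimal (1.61 ± 0.20) and lower in meibomian glands (-2.25 ± 0.20). Atf4 was higher in lacrimal glands (0.87 ± 0.18), and Ddit3, a stress-induced transcription factor, was lower there (-0.90 ± 0.27) and higher in meibomian glands (1.29 ± 0.27).

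Of 15 probes of mTOR and cap regulators, 4 were higher and 1 lower in lacrimal glands, against 28.9% and 19.5% of all probes. In meibomian glands 2 were higher and 6 lower, against 31.4% and 35.9%. Pdcd4, which holds back the eIF4A helicases, read 4.34, 4.66 and 4.92 in meibomian glands, against 13.1 to 69.4 elsewhere (-2.87 ± 0.13, 7.32-fold lower, adjusted p = 2.1e-13), and was higher in parotid glands (1.58 ± 0.16). Pabpc1, the poly(A)-binding protein, was higher in lacrimal (0.71 ± 0.21) and lower in meibomian glands (-1.33 ± 0.21). Rps6kb2, an S6 kinase, was higher in parotid glands (1.33 ± 0.19). Among 10 further translation and ribosome rescue factors, 7 were higher and 0 lower in the lacrimal gland, against the same 28.9% and 19.5%, Denr (0.93 ± 0.16) and Hbs1l (0.91 ± 0.12) among them. In the meibomian gland Hbs1l, a partner of Pelo in ribosome rescue, was lower (-1.30 ± 0.12) and Denr, a reinitiation factor, higher (0.64 ± 0.17). Aimp1, the scaffold of the multisynthetase complex, was higher in lacrimal glands (0.87 ± 0.25). Of the 2 mitochondrial factors, Mrrf was higher (0.88 ± 0.16) and Tsfm lower (-0.51 ± 0.15) in meibomian glands.

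For the leading member of each role, the probes with the most similar pattern over the 10 group means were listed, and these correlations are descriptions over means that share arrays. Eif3f was most like Nme1 (r = 0.98), Mettl26 (0.98) and Hypk (0.98), Cars most like Spcs3 (0.97), Rab3d (0.96) and Chid1 (0.96), and Cars2 most like Sec61b (0.99), Sec11c (0.98) and Tex15 (0.98). Eif2ak3 was most like Morf4l1 (0.99), Scrn3 (0.98) and Cldn10 (0.98), and Eif4a2 most like Cldn10, Morf4l1 and Pip4p2 (0.98 each). Eif1ad was most like Fdps (0.99), Zc3h15 (0.99) and Tmem54 (0.98), and Gspt1 most like Jagn1 (0.97), Gnpat (0.95) and Pycard (0.95). Eif5a was most like Alas1 (0.999), C1qtnf1 (0.98) and Rplp2 (0.97), and Eif4ebp2 most like Taf1a (0.97), Foxf2 (0.95) and Pop7 (0.94). Eif4ebp2 differed between the array sets by 2.57 and did not pass limma's F test over the glands (adjusted p = 0.377). Set 1 gives 1 array to every group, of 2 in some glands and of 3 in others. The likeness of Eif4ebp2 is therefore not read as a gland pattern. Eef1a1 was most like Ero1b (0.99), Rpl15 (0.99) and Serp1 (0.98), with the limit near the top of the scale given above.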

How the data were processed

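Each of 26 samples is 1 expression array of RNA pooled from glands of 5 mice, per the labels. The values are intensity values in the deposited series table, scaled per array by the authors in a way the sources used here do not give, nor the platform, labelling or scanner. From the deposited intensity values, cells of exactly -1 (0.821% of 273000) were taken as a missing code and left out, values under the 1st percentile of positive values (0.0234) were raised to it, and log2 was taken without further normalization, since array medians spanned 0.0403. Of 10500 probes, 8983 have 1 gene symbol, 1516 none and 1 several, and 8191 passed the filter on dim signal. R 4.3.3 and limma 3.58.1 fitted 10 group means over all 26 arrays (16 residual degrees of freedom), with sexes weighted equally between glands, and Benjamini-Hochberg adjustment over all probes. The limma step was tested on simulated data with independent arrays. They held no pool letter correlation and no array sets, so that test says nothing about error rates under these. Nothing says that pools of a group were processed separately beyond their letters, so p-values measure the spread between these pools, and the number of arrays limits the precision.

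Pool letters paired male and female samples: in the 3 glands with 3 pools, all 9 same-letter pairs of deviations from the group means correlated (0.441 to 0.816) and each sample correlated best with its own letter, whereas other letters gave -0.695 to 0.491. The letter within gland was therefore also fitted as a block, fixed for sex and random for gland comparisons. The array sets follow the letters within each gland, so these correlations hold the set difference too. The random block correlation was 0.563, and 0.444 with the array set as a term. Members, role and pathway lists, markers and tests were chosen with earlier results of these data known. For each gland the text names up to 8 members per direction among those past the test, those with no overlap of arrays first, every member called between sexes, up to 3 more per role list and up to 3 per pathway list by the range of gland means. Atf4, Ddit3 and Aimp1, and role members beyond those, were named after their values were seen. A member dim in a group, at or under the 30th percentile on every array, is given as a bound. Probes were named through the platform annotation, and whether a probe also reads related transcripts was not tested. Alternatives covered the missing code, the floor, a pseudocount of 0.25, the filter, quantile normalization, array weights, the array sets, the block and leaving out each array.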

Additional observations from a re-analysis of the deposited data

How the results depend on the processing

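Of the 53 named gland differences, 37 kept their call without any single array, 33 with the replicate block and 45 under quantile normalization. All 11 lacrimal and 16 meibomian ones kept it without any single array, and all 11 lacrimal and 14 of 16 meibomian ones with the block. Values that changed sign were Eef1akmt1 in submandibular (0.81) and lacrimal (0.68) and Eif5a in sublingual glands (0.055) with missing cells raised to the floor, and Eef1a1 in lacrimal (-0.0196) and meibomian glands (0.0337) under quantile normalization. Their cause was not tested, except that the floor replaces missing cells of bright probes by the lowest value. With the random replicate block (correlation 0.563), members called were 2 higher and 1 lower in submandibular, 2 lower in sublingual, 0 higher and 3 lower in parotid and 6 higher in meibomian glands; adding the array set, an alternative chosen after seeing the data, gave 3 lower in submandibular, 2 higher and 3 lower in sublingual, and 0 higher and 7 lower in parotid glands. The fixed replicate block gave 1 member called between sexes in submandibular and 1 in lacrimal glands. A required difference of at least 1 left 0 higher and 0 lower in submandibular, 1 lower in sublingual, 0 higher and 1 lower in parotid, 6 higher and 1 lower in lacrimal, and 3 higher and 6 lower in meibomian glands, by construction fewer. Array set as a term gave 9 lower in submandibular and 3 higher in sublingual glands. Array set 2 alone gave 0 lower in submandibular, 1 higher and 5 lower in sublingual, 6 lower in parotid and 1 lower in lacrimal glands and 1 member in the sex by gland F test; set 1 alone gave 2 higher and 1 lower in submandibular, 3 higher and 0 lower in sublingual, 0 higher in parotid and 21 higher in lacrimal glands. Array weights gave 1 higher in sublingual and 23 lower in meibomian glands. In the sublingual gland 4 were higher under quantile normalization, 1 with the floor at the 5th percentile, 2 with the pseudocount of 0.25, 2 with the 50th percentile filter and 2 with a trended, robust fit. Quantile normalization gave 2 higher in parotid, missing cells at the floor 2 lower in submandibular, no filter 3 lower in submandibular and 5 lower in sublingual, and the filter on all 26 arrays 1 lower in lacrimal glands. Leaving out single arrays gave ranges of 2 to 5 higher and 1 to 6 lower in submandibular, 0 to 2 and 4 to 9 in sublingual, 0 to 2 and 5 to 15 in parotid, 29 to 34 and 2 to 3 in lacrimal and 9 to 13 and 15 to 17 in meibomian glands, 41 to 46 in the gland F test, 0 to 1 in sublingual and parotid sex comparisons and the sex by gland F test, and 0 to 0 in the other sex comparisons. The sex calls gained were Eif2b4 in parotid glands without female pool B, which leaves only the low female array (2.88), and Eif1a in sublingual glands without female pool A, which leaves 1 female array at the floor, so no size is given. Both lone arrays were assumed to vary like the other groups. Lower parotid calls were fewest without female A (5), male A (5) or female B (7).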

Other observations

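The array sets moved with some translation factors as much as the glands did. Between set 1 and set 2, 18 of the 54 members differed past the adjusted threshold, 5 higher and 13 lower in set 1 (33.3%, against 29.4% of all probes). Because the sets were drawn from these same values, the counts describe the split and are not a test of it. Eif4ebp2, which blocks eIF4F like Eif4ebp1, was higher in set 1 by 2.57 on the log2 scale. In submandibular glands it read 5.20 and 3.86 on the set 1 arrays (male and female pool B), against 0.57 to 0.82 on the set 2 arrays. In meibomian glands it read 3.003 and 2.75, against 0.36 to 0.52. Its gland differences, with standard errors of 0.69 to 0.80, passed in no gland. Eif4enif1 (1.03), Eif4e3 (0.98) and Eef2 (0.79) were also higher in set 1, and Eif2ak3 (-0.69) was lower.

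The spread between pools of 1 sex and gland differed by gland. The median SD of the members' log2 values was 0.28 in submandibular, 0.30 in sublingual, 0.22 in parotid, 0.40 in lacrimal and 0.20 in meibomian glands, and that of all probes was also highest in lacrimal (0.46) and lowest in meibomian glands (0.23). Eef1akmt1 was missing on 4 of the 6 meibomian arrays, all in array set 2, while the 2 of set 1 read 4.53 and 5.27.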
